A study of Mus musculus with 56 samples.

Results

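The pulmonary response to the middle dose of chrysene (Chr), a polycyclic aromatic hydrocarbon, was examined by comparing lung RNA of mice given 50 mg/kg-bw/day with that of vehicle controls. All lung arrays whose titles carry the dose codes D2 and D0 were taken, which gave 3 D2 and 5 D0 arrays, 8 of the 56 arrays in the series. Each array held lung RNA of 1 adult male MutaMouse of about 14 weeks, a transgenic strain used to score mutations. All mice, controls included, were individually housed under a 12 h light and dark cycle and gavaged on 28 consecutive days, D0 with olive oil alone and D2 with Chr dissolved in olive oil. Tissue was collected 72 h after the last gavage, and RNA came from a random section of the lung, so the share of airway, pleura and attached tissue could differ between mice. The labels state groups of 5, whereas D2 is represented by 3 lung arrays here (mice 12, 13 and 15). The time of day at which each mouse was killed is not given in the sources used here.

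Polycyclic aromatic hydrocarbons bind the aryl hydrocarbon receptor (AhR), which pairs with ARNT and switches on genes of xenobiotic metabolism such as Cyp1a1. Metabolites that bind DNA can activate p53, whose targets include the cell cycle inhibitor Cdkn1a. Lung cells also run a circadian clock, in which CLOCK and ARNTL drive Per, Nr1d1, Nr1d2, Dbp, Tef and Hlf, whereas NR1D1 and NR1D2 repress Arntl and Nfil3, so that the first set and the second peak at opposite times of day.

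Values are log2 ratios of Cy5 (lung RNA) over Cy3 (a universal mouse reference RNA made from cell lines), so a ratio can be compared between mice for 1 probe but not between probes. Dyes were not swapped. The lung label was borne out by defining markers. The surfactant gene Sftpc ranged from 7.66 to 8.80 on the 8 arrays, against -0.27 to 0.25 in liver and -0.23 to 0.31 in forestomach. The club cell gene Scgb1a1 ranged from 8.39 to 9.43, but was not absent from forestomach (2.98 to 6.33). The keratin gene Krt5 lay at -0.15 to 0.68 in lung against 2.51 to 4.68 in forestomach. Albumin (Alb) lay at 0.08 to 0.67 in lung against 5.99 to 6.87 in liver. Cy5 was well above background at 49.0% to 56.7% of the spots on the lung arrays. All D0 arrays lay in column 1 of their slides and all D2 arrays in column 3 or 4, so column and dosing cannot be told apart among them. The lung arrays of the lowest dose, D1, all lay in column 2. Within D2, mouse 12 lay in column 4 and mice 13 and 15 in column 3. Within the highest dose, D3, mouse 16 lay in column 3 and the others in column 4. A fit with column as a covariate takes its slope from these mice and extends it to D0, so it cannot separate column from dosing. Slide 1 held 2 D0 mice (1 and 2), slide 2 held D0 mouse 4 with D2 mice 13 and 15, and slide 3 held D0 mice 3 and 5 with D2 mouse 12, and slides 1 and 2 were scanned together. In whole lung, fewer cells of a type and less RNA per cell cannot be told apart.

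The first comparison asked which genes differed between D2 and D0. Of 55681 probes, 31448 gave Cy5 well above background on at least 3 lung arrays and were tested. By limma, 0 probes (0%) passed an adjusted p of 0.05 with a fold change of 1.5, and the smallest adjusted p was 0.569. Without adjustment, 1924 probes (6.12%) reached a p of 0.05 or less, 881 of them higher and 1043 lower. With 1 probe for each of 14753 named genes, 468 genes (3.17%) were higher and 396 (2.68%) lower at that limit. In 409 genes (2.77%) all 3 D2 arrays lay above all D0 arrays, and in 359 (2.43%) all lay below. These shares serve as the background for every gene list below. A D2 against D0 difference in lung given below without an adjusted p had one of at least 0.569 in the fit of all 18 lung arrays, and none is a call there. Over the alternatives, median centring of each array in place of LOWESS shifted the median difference over all probes from near 0 to 0.12 (log2), and gave 1171 genes higher and 36 lower at the unadjusted limit.

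**Figure D1:**
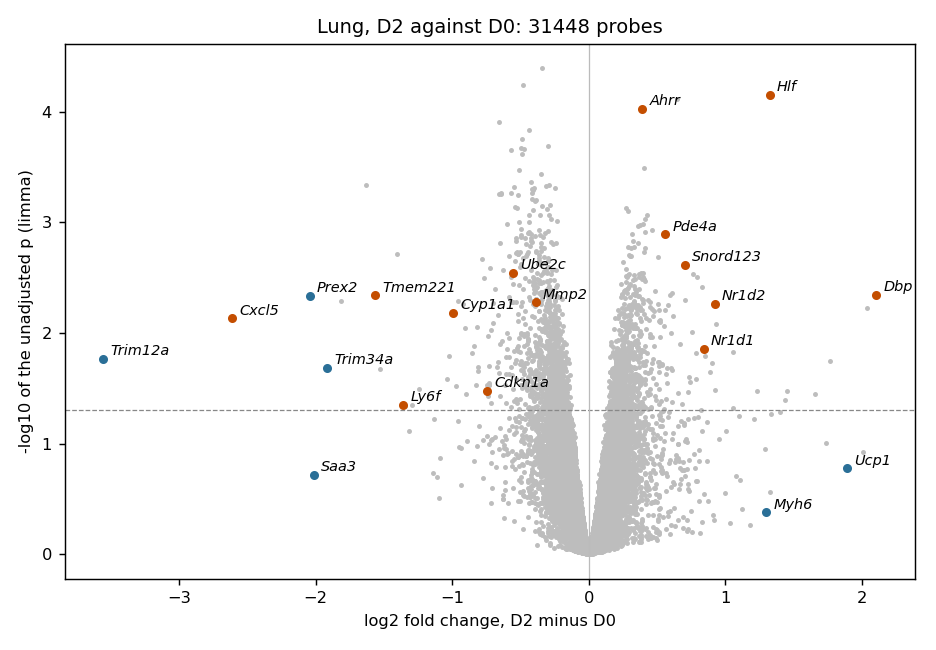
Log2 fold change of D2 minus D0 (x axis) against -log10 of the unadjusted limma p (y axis) for the 31448 probes tested in lung. Orange points are genes named by rule, blue points genes chosen after their values were seen, and the dashed line marks the unadjusted limit of 0.05. Among the labelled genes measured in both groups, Hlf has the smallest p and Dbp the largest positive difference. Ahrr in D0 and Trim12a and Prex2 in D2 were not well above background, so their places on the x axis are not exact.

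Dbp, a clock output gene, had the largest positive difference of all named genes. Of the 20 genes higher by at least 1 on the log2 scale, Dbp and Hlf were the 2 whose groups did not overlap. Of 14 clock output genes tested, 7 (Dbp, Hlf, Tef, Nr1d1, Nr1d2, Per3 and Ciart) were higher at D2 at the unadjusted limit and 0 were lower, beside 3.17% and 2.68% of all genes. Ciart was measured above background on no D0 array, and of the 13 members measured in both groups 6 were higher. In 4 of the 14 all D2 arrays lay above all D0 arrays, beside 2.77% of all genes. The median log2 fold change of the list was 0.45, against 0.0085 for all genes, and 13 of the 14 were above 0. Dbp and Hlf encode PAR-bZIP transcription factors that carry the clock signal to metabolic genes.

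Dbp (probe A_55_P2032081) read -0.23, -1.95, 0.42, -0.73 and -0.80 in D0 mice 1, 2, 4, 5 and 3, and 1.12, 2.44 and 0.79 in D2 mice 13, 15 and 12. Mouse 15 was the highest and D0 mouse 2 the lowest, and the groups did not overlap. The log2 fold change was 2.11 (SE 0.65), a 4.30-fold difference (limma, unadjusted p = 0.0045, adjusted p = 0.612). A second Dbp probe gave 2.04. Hlf (probe A_55_P2009752) read 0.51, 0.00, 0.62, -0.01 and 0.23 in D0 and 1.39, 2.31 and 1.08 in D2, in the same order of mice. Again mouse 15 stood highest and the groups did not overlap, with a log2 fold change of 1.32 (SE 0.26, limma, unadjusted p = 7.05e-05, adjusted p = 0.569). The differences within slides 2 and 3 were 1.36 and 1.56 for Dbp and 1.24 and 0.97 for Hlf.

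The nuclear receptors Nr1d1 and Nr1d2, repressors of Arntl, lay above D0 in all 3 D2 mice. Nr1d2 read 0.35, -0.39, 0.58, 0.19 and 0.41 in D0 and 0.91, 1.66 and 0.89 in D2. Its log2 fold change was 0.92 (SE 0.29, limma, unadjusted p = 0.0054), and that of Nr1d1 was 0.84 (SE 0.31, unadjusted p = 0.0138). Nr1d1 did not reach the limit without mouse 15 (0.72) or with slide as a fixed block (0.57), at unadjusted p of 0.0624 and 0.0574 by limma. Tef, the third PAR-bZIP gene, differed by 0.79 (SE 0.29), with D2 mouse 12 (1.496) inside the D0 range (0.88 to 1.63). Per3 differed by 0.52 (SE 0.22), with overlap. Ciart, a repressor of CLOCK and ARNTL, cleared background on 0 of 5 D0 and 2 of 3 D2 arrays and was at least 1.16-fold higher in D2 by Cy5 brightness (limma, adjusted p = 0.804). The light-responsive period genes Per1 (0.28, SE 0.49) and Per2 (0.53, SE 0.27), and Cry2 (0.26, SE 0.15), did not reach the unadjusted limit.

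Of 6 genes of the opposite phase tested, 0 were higher and 2, Arntl and Nfil3, were lower at the unadjusted limit, with a list median of -0.16 and 1 gene above 0. Nfil3 encodes a repressor that competes with DBP, TEF and HLF for D-box sites. It read -1.81, -1.30, -2.07, -1.24 and -1.53 in D0 and -2.22, -2.83 and -2.24 in D2. All D2 mice were below all D0 mice, and the log2 fold change was -0.84 (SE 0.30, limma, unadjusted p = 0.013). It did not reach the limit without mouse 15 (-0.64), with slide as a fixed block (-0.55) or with median centring (-0.57), at unadjusted p of 0.0806, 0.0595 and 0.0767 by limma. Arntl read 0.23, 0.79, -0.31, 0.05 and 0.20 in D0 and -0.56, -1.81 and -0.14 in D2. D2 mouse 12 lay inside the D0 range, and the log2 fold change of -1.03 (SE 0.38, unadjusted p = 0.0161) went to -0.54 (unadjusted p = 0.176) without mouse 15. With median centring it was -0.78 (limma, unadjusted p = 0.0502). Clock (-0.09, SE 0.11) and Rora (-0.13, SE 0.10) did not reach the limit, Npas2 was not well above background on any D2 array, and Cry1 was not well above background on any D0 or D2 array. Cry1 is driven by CLOCK and ARNTL as well, and was counted in this list because NR1D1 also represses it.

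Mouse 15 set much of the size of the clock difference. Without it, the clock output list had 2 genes in place of 7 at the unadjusted limit and a median of 0.14, Dbp differed by 1.61 and Nr1d2 by 0.67 (unadjusted p = 0.0510). Hlf still differed by 0.97 (limma, unadjusted p = 0.00098) without mouse 15. Without mouse 12 the list had 10 such genes. With slide as a fixed block the list had 3 such genes and a median of 0.31, and Arntl differed by -0.64 (unadjusted p = 0.0725). With the array column as a covariate the list had 9 such genes and a median of 1.75, and the differences were 4.64 (SE 1.75) for Dbp, 2.58 (SE 0.66) for Hlf and -3.21 (SE 0.96) for Arntl. Mouse 12, the D2 mouse nearest D0 for these genes, was the only D2 mouse in column 4. That fit extends a slope from within D2 and D3 to D0, so these values do not show what column contributed. The part of killing time in these values was not tested.

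**Figure D2:**
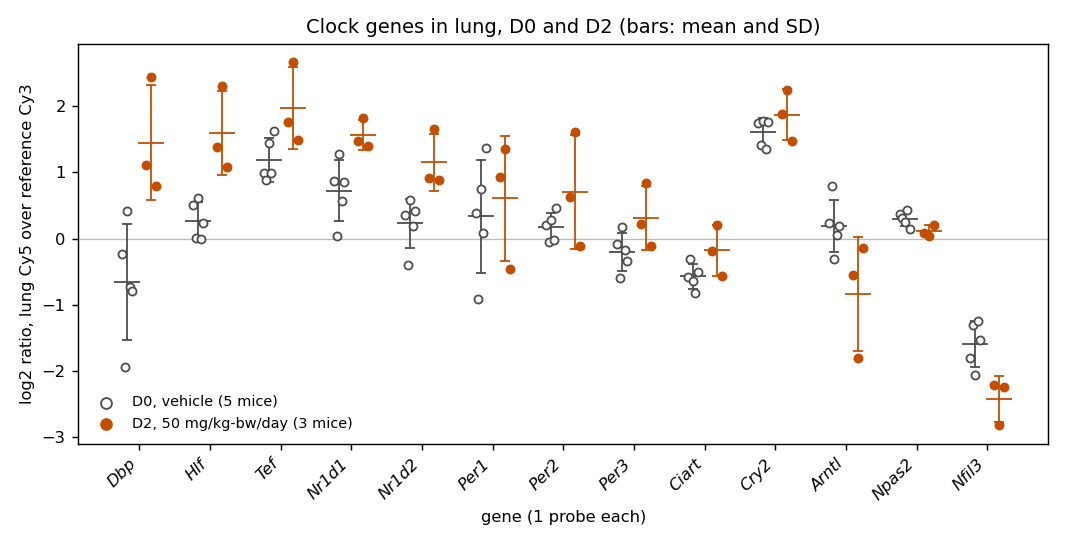
Log2 ratio (y axis) of 13 clock genes (x axis) on the 5 D0 (open) and 3 D2 (filled) lung arrays, with bars at the mean and SD. Dbp, Hlf, Nr1d1 and Nr1d2 have all D2 points above the D0 points, Nfil3 has all below, and Per1 and Per2 overlap widely.

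Promoters of the clock genes were read to see which carry the E-box CACGTG, the palindromic site bound by CLOCK and ARNTL. Windows of 300 bases, most of them before the start site, were taken from RefSeq (GRCm38.p6), which had 1 for 11 of the 14 output genes. The E-box was found in 4 of them (Tef, Ciart, Per1 and Bhlhe41), beside 7.15% of all 32851 promoters of this length. Tef (chr15, 1 match) and Ciart (chr3, 3 matches) are shown as clock output genes counted as higher at D2, although D0 gave only a bound for Ciart. Nfil3 (chr13), from the opposite phase, held the only match in its list of 6 promoters to GTNGGTCA, a core of the element bound by NR1D proteins, searched on both strands and present in 2.36% of all promoters. The windows of Dbp, Hlf, Nr1d1, Nr1d2 and Arntl held none of these letters, nor the D-box TTATGNAA, which 3.38% of promoters hold on either strand. The D-box was found in 2 of the 11 output promoters, those of Per1 and Per3. Sequences are 5′ to 3′ on the gene's strand, with matches in capitals. Tef lies at chr15:81802423-81802722 on the plus strand, Ciart at chr3:95882179-95882478 and Nfil3 at chr13:52980990-52981289 on the minus strand.
Tef: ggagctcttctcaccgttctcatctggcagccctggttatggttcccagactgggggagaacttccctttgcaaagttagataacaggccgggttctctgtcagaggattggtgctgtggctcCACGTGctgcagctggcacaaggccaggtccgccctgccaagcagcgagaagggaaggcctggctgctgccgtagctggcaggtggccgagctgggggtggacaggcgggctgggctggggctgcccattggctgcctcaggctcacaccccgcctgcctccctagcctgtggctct
Ciart: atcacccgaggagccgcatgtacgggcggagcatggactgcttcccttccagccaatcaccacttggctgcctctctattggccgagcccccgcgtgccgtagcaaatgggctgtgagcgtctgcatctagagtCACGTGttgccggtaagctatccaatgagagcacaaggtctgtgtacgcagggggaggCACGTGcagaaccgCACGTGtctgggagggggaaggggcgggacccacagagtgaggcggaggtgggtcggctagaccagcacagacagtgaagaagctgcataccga
Nfil3: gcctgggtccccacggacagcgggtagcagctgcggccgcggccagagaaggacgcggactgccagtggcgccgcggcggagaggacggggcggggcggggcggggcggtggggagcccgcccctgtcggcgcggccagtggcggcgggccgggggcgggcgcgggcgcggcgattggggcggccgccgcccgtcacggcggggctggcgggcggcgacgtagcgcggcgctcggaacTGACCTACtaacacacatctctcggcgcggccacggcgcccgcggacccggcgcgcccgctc

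Relative to the start site, the Tef match begins at -127 and those of Ciart at -116, -58 and -44. The Nfil3 match, on the opposite strand, begins at -12.

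The AhR pathway was examined because Chr is an AhR ligand. Of 17 genes tested, 2 (Ahrr and Lrat) were higher and 1 (Cyp1a1) was lower at the unadjusted limit, with a median of -0.0025. Ahrr was not well above background in D0, and of the 16 members measured in both groups 1 was higher and 1 lower. The median changed sign in 11 of 20 alternatives. Cyp1a1, the classic AhR target, which oxidises such hydrocarbons, was lower in D2 than in vehicle lung. It read 1.21, 1.12, 1.25, 1.75 and 2.99 in D0 mice 1, 2, 4, 5 and 3, and 0.65, 0.40 and 0.96 in D2 mice 13, 15 and 12. Mouse 3 was far above the other controls, and all D2 mice lay below all D0 mice. The log2 fold change was -0.99 (SE 0.32, limma, unadjusted p = 0.0066, adjusted p = 0.625), and -0.66 (unadjusted p = 0.0048) without mouse 3. With the array column as a covariate it was -1.27 (SE 0.93, unadjusted p = 0.191). Within slides 2 and 3 it was -0.72 and -1.41. At the lower dose D1 (17.5 mg/kg-bw/day) the mean was 0.40 ± 0.29 (SD, n = 5), and at D3 (150 mg/kg-bw/day) 0.66 ± 0.29 (SD, n = 5), beside 0.67 ± 0.28 (SD, n = 3) at D2. Cy5 was well above background on all D0 and D2 arrays but on only 3 of 5 D1 and 4 of 5 D3 arrays. The Cy3 reference was so on 0 of the 18 lung arrays, so these means and the size of the difference are not exact.

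Ahrr, the AhR repressor, is itself an AhR target. The probe (A_51_P254425) cleared background in 0 of 5 D0 mice and 3 of 3 D2 mice, so D0 has only a bound. By Cy5 brightness Ahrr was at least 1.17-fold higher in D2 (limma, adjusted p = 0.569). With the array column as a covariate the measured difference did not reach the unadjusted limit (limma, unadjusted p = 0.219). The ratios were -0.77, -0.61, -0.85, -0.73 and -0.85 in D0 and -0.42, -0.32 and -0.38 in D2, with no overlap. The D1 and D3 means were -0.38 ± 0.10 (SD, n = 5) and -0.32 ± 0.091 (SD, n = 5), so that the 3 dosed groups lay close together.

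Cyp1b1, a second cytochrome that oxidises such hydrocarbons, differed by 0.20 (SE 0.19), Ahr by 0.34 (SE 0.25) and Nqo1, a quinone reductase, by 0.15 (SE 0.24). Tiparp, an AhR-induced repressor, was at -0.0056 (SE 0.090), a value whose sign turned in 8 of 20 alternatives. Lrat, which esterifies retinol, was higher by 0.73 (SE 0.32), with D2 mouse 15 (3.25) just below D0 mouse 1 (3.27). Cyp1a2 stayed near background throughout the lung arrays (0 well above it) and was not tested. Among 31 other phase I enzymes only Por, the electron donor of cytochrome P450, passed the unadjusted limit (0.35, SE 0.16), and it was within the D0 range in mouse 12. Without mouse 15 Por differed by 0.16 (limma, unadjusted p = 0.325). Among 26 phase II enzymes and 25 NRF2 targets only Ugdh, which makes UDP-glucuronic acid, passed (0.16, SE 0.072). Ugdh reached the limit in 9 of 20 alternatives and was at 0.074 with the array column as a covariate (limma, unadjusted p = 0.728) and 0.36 with median centring (unadjusted p = 0.0574).

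Promoters of Cyp1a1, Ahrr and Cyp1b1 are shown as AhR targets of which Cyp1a1 was lower and Ahrr higher at the unadjusted limit, while Cyp1b1 did not pass it. Windows existed for 14 of the 19 genes in the list, and 8 of them (Ahrr, Arnt, Cyp1a1, Cyp1b1, Gsta1, Lrat, Ptges3 and Tiparp) held GCGTG, the core of the xenobiotic response element, on either strand. The core is short, and 32.4% of all 32851 promoters held it. Cyp1a1 lies at chr9:57697363-57697662 on the plus strand, Ahrr at chr13:74292282-74292581 and Cyp1b1 at chr17:79715012-79715311 on the minus strand.
Cyp1a1: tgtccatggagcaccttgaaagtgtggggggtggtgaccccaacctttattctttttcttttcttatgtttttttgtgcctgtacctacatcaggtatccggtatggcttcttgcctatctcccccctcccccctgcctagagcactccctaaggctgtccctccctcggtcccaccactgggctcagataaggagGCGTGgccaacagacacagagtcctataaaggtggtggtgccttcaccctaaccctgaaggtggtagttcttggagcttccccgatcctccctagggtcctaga
Ahrr: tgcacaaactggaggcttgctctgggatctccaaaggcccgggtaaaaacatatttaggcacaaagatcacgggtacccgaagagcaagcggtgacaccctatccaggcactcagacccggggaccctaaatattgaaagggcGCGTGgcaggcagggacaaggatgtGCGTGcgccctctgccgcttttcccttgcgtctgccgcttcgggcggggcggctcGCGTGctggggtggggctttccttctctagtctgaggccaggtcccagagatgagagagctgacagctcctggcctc
Cyp1b1: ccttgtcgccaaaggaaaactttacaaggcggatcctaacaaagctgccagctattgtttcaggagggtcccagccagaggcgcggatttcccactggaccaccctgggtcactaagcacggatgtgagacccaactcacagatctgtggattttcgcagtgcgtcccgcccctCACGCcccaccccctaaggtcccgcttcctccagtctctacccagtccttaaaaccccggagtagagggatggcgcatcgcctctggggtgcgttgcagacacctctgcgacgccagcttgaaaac

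Ahrr holds 3 matches, beginning at -107, -82 and -27 relative to the start site. Cyp1a1 and Cyp1b1 hold 1 each, at -54 and -76, the latter on the opposite strand. A gene that was lower at D2 and one that was higher thus both carry the core.

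**Figure D3:**
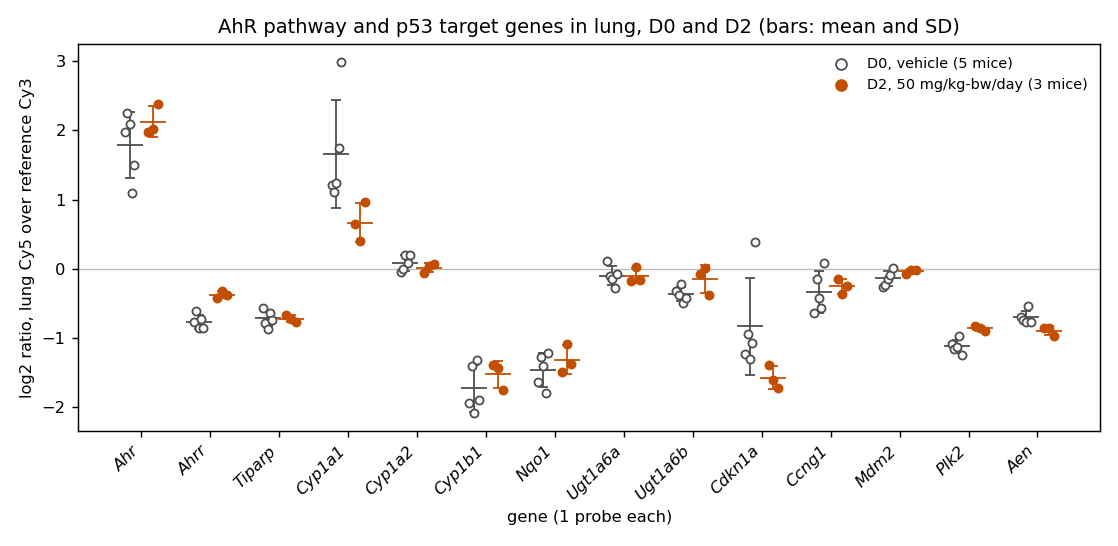
Log2 ratio (y axis) of 9 AhR pathway genes and 5 p53 targets (x axis) on the 5 D0 (open) and 3 D2 (filled) lung arrays, with bars at the mean and SD. Cyp1a1, Cdkn1a and Aen have all D2 points below D0, Ahrr and Plk2 all above. The high D0 point of Cyp1a1 (2.99) and of Cdkn1a (0.39) is the same mouse, number 3.

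Genes of the DNA damage response showed no shared direction. Of 28 p53 targets tested, 2 were higher (Plk2 and Ddb2) and 2 lower (Cdkn1a and Aen), and the median was 0.032. Leaving out 1 mouse gave 0 to 2 higher and 0 to 3 lower, and the median changed sign in 5 of 20 alternatives. Cdkn1a (p21) read -1.22, -0.94, -1.31, -1.07 and 0.39 in D0 and -1.38, -1.61 and -1.72 in D2. Mouse 3 stood far above the other controls, and all D2 mice lay below every D0 mouse. The log2 fold change was -0.74 (SE 0.32, limma, unadjusted p = 0.0332), and -0.44 (unadjusted p = 0.0757) without mouse 3. Cdkn1a reached the limit in 13 of 20 alternatives. It was -0.50 with median centring (limma, unadjusted p = 0.144), and the unadjusted p was 0.0723 with slide as a fixed block, 0.217 with the array column as a covariate, 0.0739 without mouse 15, 0.0950 without mouse 12 and 0.0532 with only the D0 and D2 arrays. A probe for another Cdkn1a transcript gave -0.05 (SE 0.083). Plk2, a stress-responsive kinase, was higher by 0.26 (SE 0.11) without overlap, but missed the limit without D2 mouse 13 (limma, unadjusted p = 0.0790). Aen, an apoptosis-linked exonuclease, was lower by 0.19 on the log2 scale (-0.19, SE 0.077). It reached 0.02 with median centring, which put the median of all probes at 0.12. Mdm2 (0.10, SE 0.081) and Ccng1 (0.08, SE 0.23) did not pass.

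Among 32 genes of nucleotide excision repair and translesion synthesis, Ddb2 (0.24), Rfc1 (0.22) and Xpa (0.17) were higher and Ercc4 (-0.15) and Ube2b (-0.26) lower at the unadjusted limit. Leaving out 1 mouse gave 0 to 4 higher and 1 to 2 lower genes. Rfc1, a subunit of the clamp loader, and Ube2b, the ubiquitin-conjugating partner of RAD18, did not overlap between groups. Ube2b was at -0.05 with median centring, and Rfc1 missed the limit with the array column as a covariate (limma, unadjusted p = 0.765). All differences in this list lay between -0.26 and 0.24. Of 28 proliferation genes, 5 were above 0 and the median was -0.23, which was -0.13 without D0 mouse 5, -0.14 without D2 mouse 13 and -0.03 with median centring. Only Ube2c, which serves the anaphase-promoting complex, passed the limit (-0.56, SE 0.16, limma, unadjusted p = 0.0029). The cell cycle genes Mki67 (-0.43, SE 0.36), Ccnb1 (-0.44, SE 0.25) and Birc5 (-0.56, SE 0.37) did not, and D0 mouse 5 was the highest array for each. The replication-dependent histone genes H1f5 (-0.92, SE 0.29) and H2ac22 (-0.74, SE 0.26) were lower without overlap, with mouse 5 again the highest control. Histone genes have near-identical copies, so these 2 probes may not be specific. Of 29 apoptosis regulators, 0 passed on either side.

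Of 27 chemokines and inflammatory mediators, 0 were higher and 3 (Cxcl5, Cxcl1 and Cxcl15) were lower, with a median of -0.28 and 4 genes above 0. With median centring the median was -0.07 and 1 gene was lower, with the array column as a covariate 0 were lower, with slide as a fixed block 6 and with the cardiac muscle list mean as a covariate, an alternative chosen after seeing the data, 9. Without D0 mouse 2 the count was 8, without D0 mouse 1 it was 5, and without D2 mouse 12 or 15 it was 1. Without D0 mouse 5 the median was -0.17. Cxcl5, a neutrophil attractant, read -2.99, -2.07, -2.56, 2.12 and -0.60 in D0 mice 1, 2, 4, 5 and 3, and -3.55, -4.18 and -3.78 in D2. Its log2 fold change was -2.62 (SE 0.86, limma, unadjusted p = 0.0073), and 2 of the 3 D2 arrays measured it above background. D0 mice 5 and 3, the controls of slide 3, lay well above the other controls. They did so too for Ly6f (3.73 and 2.64, against 0.39 to 0.59) and Ly6i (4.19 and 3.18, against 0.98 to 1.05). The D2 values were 0.12 to 0.33 for Ly6f and 0.43 to 0.89 for Ly6i, and the log2 fold changes were -1.36 (SE 0.63) and -1.35 (SE 0.63). Without mouse 5 both were -0.82 and did not reach the limit. Within slides 2 and 3 the differences were -1.30 and -4.54 for Cxcl5, -0.36 and -3.01 for Ly6f, and -0.40 and -2.79 for Ly6i. Mouse and slide cannot be told apart for D0 mice 5 and 3. Ly6f and Ly6i are similar in sequence and may share signal. Mouse 5 was also the highest array for the acute phase gene Saa3 (1.79, others between -4.85 and -0.71) and for the alveolar macrophage list mean (0.81 above the D0 mean), and it was the only one of the 8 with a high Clca1 ratio (6.50, others between -0.15 and 0.30). Saa3 and Clca1 were chosen after their values were seen. The part of mouse 5 in the chemokine values was not tested beyond leaving it out, which gave 2 lower genes in place of 3. The count was 1 without D2 mouse 12 or 15, 2 without D0 mouse 3, 5 without D0 mouse 1 and 8 without D0 mouse 2.

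In the extracellular matrix list, 0 of 33 were higher and Mmp2 (-0.39, SE 0.12), Tnc (-0.41, SE 0.15) and Spp1 (-0.86, SE 0.32) were lower. Leaving out 1 mouse gave 2 to 5 lower genes, and the other alternatives 1 to 4. Mmp2, a gelatinase, read -0.19, -0.44, -0.40, -0.11 and -0.15 in D0 and -0.75, -0.64 and -0.56 in D2, without overlap, and its difference was -0.13 with median centring (limma, unadjusted p = 0.319). Spp1 (osteopontin) turned to 0.15 with the array column as a covariate. Of the complement list (21 genes) only C2 was higher (1.06, SE 0.50), with overlap, and it turned to -0.23 with that covariate. C2 reached the limit in 9 of 20 alternatives. It read 3.55, 1.02, 1.91, 2.83 and 1.98 in D0 mice 1, 2, 4, 5 and 3 and 3.52, 2.81 and 3.62 in D2 mice 13, 15 and 12. Its high and low mice were those of the mesothelium list mean given below, highest in D0 mice 1 and 5 and lowest in mouse 2, and the part of these cells in the difference was not tested. Of 30 angiogenesis genes only Vegfc, a lymphatic growth factor, was lower (-0.56, SE 0.23), and it turned to 0.08 with the array column as a covariate. Dnaja1, an HSP40 co-chaperone, was the only heat shock gene of 22 to pass (-0.74, SE 0.33), with D0 mouse 2 at 1.43 and the other controls at 0.10 to 0.34. Without mouse 2 it differed by -0.50, and a second probe gave -0.42 (SE 0.21) with overlap. The lists for interferon response (28 genes), antigen presentation by MHC class II (11), focal adhesion and cytoskeleton (32), glucocorticoid responsive genes (19) and immediate early genes (24) had 0 genes past the limit on either side. Leaving out 1 mouse gave 0 to 2 higher and 0 to 3 lower glucocorticoid genes, and 0 to 1 higher and 0 to 2 lower interferon genes. The other lists had at most 1 on a side.

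Beyond these lists, the named genes had varied roles. Snord123, a C/D box small nucleolar RNA, differed by 0.71 (SE 0.20, limma, unadjusted p = 0.0024), from -1.19 to -0.52 in D0 and from -0.21 to 0.01 in D2. Pde4a, which degrades cyclic AMP, read -0.72 to -0.24 in D0 and 0.07 to 0.20 in D2 and differed by 0.56 (SE 0.15), but 0.25 (SE 0.15) at a second probe. Gsg1l, an auxiliary subunit of AMPA receptors, was at 1.66, 1.65 and 1.70 in D2 and at 0.73 to 1.498 in D0 (0.60, SE 0.18), and at 0.13 (SE 0.14) at a second probe. The germ cell genes Calr3 (0.70, SE 0.22) and Tex11 (0.67, SE 0.24) and the membrane protein Tspan4 (0.56, SE 0.23) were also higher, Tspan4 by 0.31 (limma, unadjusted p = 0.204) without mouse 15. Ocel1 (0.93, SE 0.40) split the controls, with mice 1 and 2 of slide 1 at -0.81 and mice 3, 4 and 5 between 0.21 and 0.32. Klhl26 (0.56, SE 0.25) likewise put mice 1 and 2 lowest. Within slides 2 and 3 the differences were 0.35 and 0.71 for Ocel1 and 0.32 and 0.39 for Klhl26. Sspn (sarcospan, of the dystrophin complex), from the fixed set, was higher by 0.42 (SE 0.14), with D2 mouse 13 inside the D0 range. On the lower side, Tmem221 ranged from 0.95 to 3.02 in D0 and from -0.23 to 0.89 in D2 (-1.56, SE 0.48), with 1 of 3 D2 arrays above background. Slc4a1, the band 3 protein of red cells, was lower by 0.81 on the log2 scale (-0.81, SE 0.32), with D2 mouse 15 at 2.249 beside a lowest control of 2.253. With the array column as a covariate Snord123, Gsg1l, Calr3, Tex11, Ocel1, Klhl26, Sspn, Tmem221 and Slc4a1 did not reach the unadjusted limit (limma, unadjusted p from 0.104 to 0.645). Pde4a did (limma, unadjusted p = 0.0180).

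Markers of other cell types were read because the sections were random. Of 40 lists, 20 were of cell types, and those for alveolar type 1, club, ciliated, smooth muscle, T, B, thymocyte, alveolar macrophage, neutrophil or monocyte, platelet, skeletal muscle, keratinocyte and thyroid cells had 0 genes past the unadjusted limit. Pleural mesothelium had the largest list median (1.37, 6 genes), with Upk3b (1.45, SE 0.63) and Lrrn4 (1.43, SE 0.65) past the limit. Its list mean was 1.38, -1.04, -0.32, 0.45 and -0.46 in D0 mice 1, 2, 4, 5 and 3, relative to their mean, and 0.97, 0.60 and 1.58 in D2 mice 13, 15 and 12. D0 mouse 1 lay among the D2 mice. The count of 2 was 0 without D0 mouse 2, 3 or 4 or D2 mouse 12, 1 without D2 mouse 13, and 4 without D0 mouse 1 or D2 mouse 15, and with the array column as a covariate the median was -0.29.

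The adipocyte list (9 genes) had a median of 0.91 and 0 genes past the limit. Its mean was 2.57 in D2 mouse 13, against 0.41 and -0.59 in mice 15 and 12 and -0.82 to 0.84 in D0, and without mouse 13 the median was -0.07. Ucp1, the defining gene of brown fat, was well above background in mouse 13 alone (6.03, others between -0.04 and 0.41). Cardiac muscle genes split both groups, with list means between -1.53 and 1.40 in D0 and between -1.24 and 1.89 in D2. The cardiac myosin Myh6 was at 0.22 and 0.36 in D0 mice 1 and 2 and at 5.86 to 6.16 in the other controls, and at 6.90, 6.16 and 2.07 in D2. The clock output list had 6 genes at the unadjusted limit with the adipocyte list mean as a covariate and 7 with that of cardiac muscle, both covariates chosen after seeing the data. The erythroid list (5 genes, median -0.32) had Slc4a1 lower, the hepatocyte list (6 genes, 0.25) had Apoa2 higher, endothelium (12 genes, -0.05) had Emcn higher and alveolar type 2 (12 genes, -0.07) had Cxcl15 lower.

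**Figure D4:**
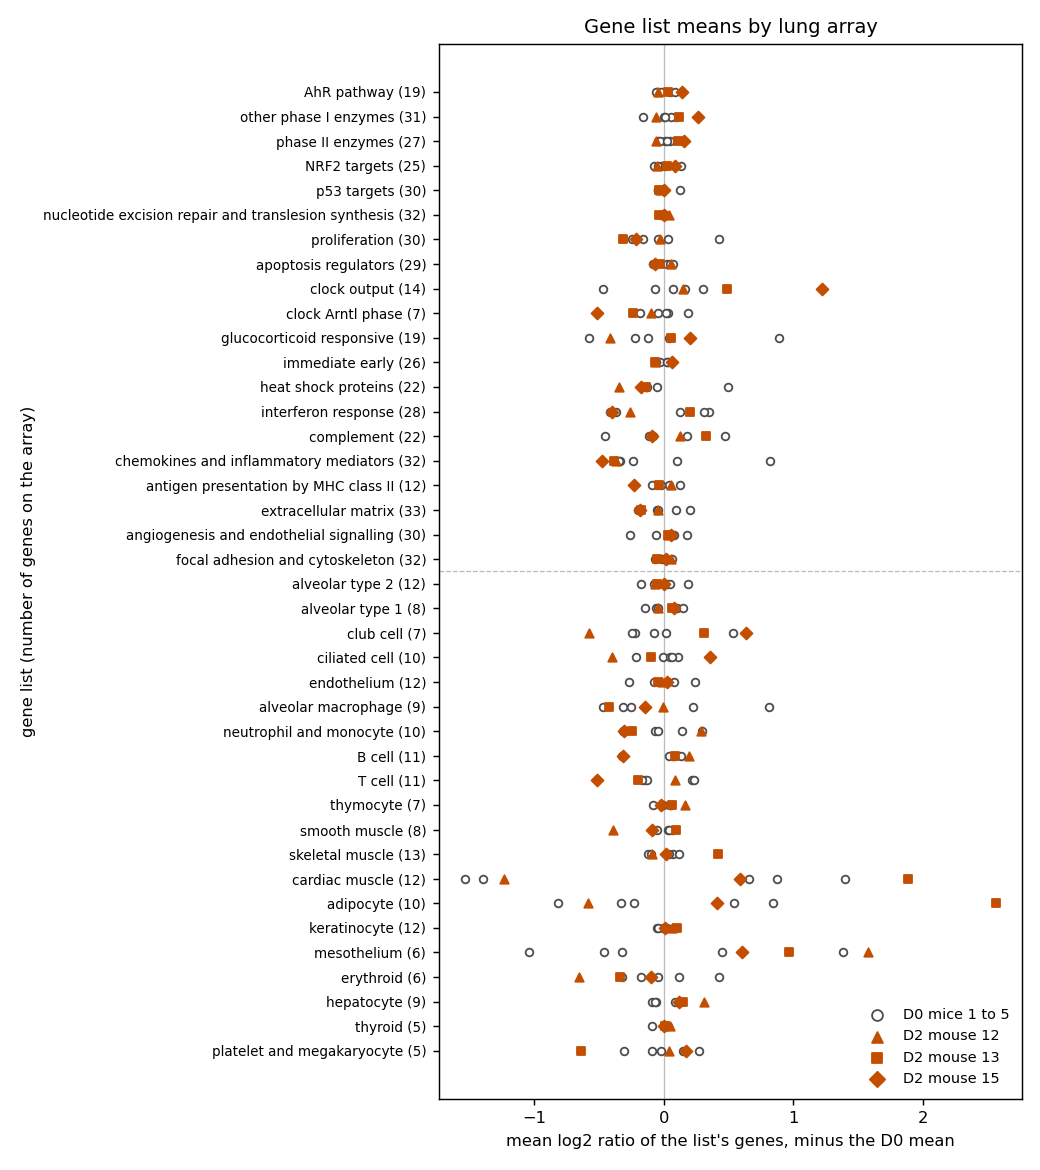
Mean log2 ratio of each of 40 gene lists (y axis, with the number of genes on the array) by lung array, relative to the mean of the D0 arrays (x axis). Open circles are D0 mice, filled symbols D2 mice, and lists of cell types stand under the dashed line. Clock output is spread upwards by mouse 15, adipocyte by mouse 13, and cardiac muscle and mesothelium are wide in both groups.

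Neighbouring doses were contrasted in the same fit of all lung arrays. Against D1, limma called 0 of 31448 probes at D2 (1151 at the unadjusted limit, smallest adjusted p 1.00), and D3 against D2 also gave 0 (1518, smallest adjusted p 0.832). With the spread from the D2 and D3 arrays alone, D3 against D2 gave 3 calls, Calr3, Ocel1 and Prex2. Hlf was higher at D2 than at D1 by 1.07 (unadjusted p = 0.00060) and lower at D3 than at D2 (-0.56, unadjusted p = 0.0421), and Dbp differed by 1.77 and -0.86. The Dbp means were -0.66 ± 0.87 (SD, n = 5) at D0, -0.32 ± 1.20 (SD, n = 5) at D1, 1.45 ± 0.87 (SD, n = 3) at D2 and 0.58 ± 0.89 (SD, n = 5) at D3, so that D2 was the highest and the SDs of D2 and D3 overlapped. Ocel1 lay at -0.83 ± 0.14 (SD, n = 5) at D3, below D2 (0.77 ± 0.36, SD, n = 3) by 1.60 on the log2 scale. Calr3 (-0.92) and Snord123 (-0.85) were likewise lower at D3 than at D2.

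The D2 difference in lung was set against that in the liver and forestomach of the same treatment, with an interaction term in a limma fit of all 56 arrays, run once for each pair of tissues on the probes testable in that pair. Against liver, 0 of 32647 probes were called (544 at the unadjusted limit). Against forestomach, 4 of 32512 probes were called, each at an adjusted p of 0.0449, and 0 under LOWESS recomputed from the scanner files, median centring or a spread taken from these tissues alone. The forestomach arrays fell into sets by scan, with Cy5 well above background at 18.9% to 34.9% of spots on 6 arrays of scan 1 (3 D0, 3 D2) and at 50.1% to 50.8% on 3 of scan 2 (2 D0, 1 D2). The part of this in the calls was not tested. Hlf was higher at D2 in lung (1.32) and lower in forestomach (-0.33), a difference of 1.65 (SE 0.31). In forestomach it read -0.02 to 0.65 in D0 and -0.41 to 0.38 in D2, and 6 of those 9 arrays measured it above background. The tRNA splicing subunit Tsen54 differed by 0.51 in forestomach and -0.09 in lung, the translation factor subunit Eif3d by 0.62 and -0.12, and a probe without a gene symbol (A_30_P01018146) by 0.46 and -0.48. In forestomach every D2 value was above every D0 value for Tsen54 and Eif3d, but not for the unnamed probe. Within scans 1 and 2 the forestomach difference was -0.18 and -0.53 for Hlf, 0.53 and 0.53 for Tsen54, 0.79 and 0.32 for Eif3d, and 0.65 and 0.02 for the unnamed probe.

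Dbp and Arntl were also read in the liver of the same mice, where D2 also has mouse 11. In liver Dbp was -2.22 to -0.18 in D0, 2.13 and 1.93 in D2 mice 15 and 13, and -0.07 and -0.44 in mice 12 and 11. Arntl in liver was 0.49 to 1.48 in D0, -1.24 and -0.71 in mice 15 and 13, and 0.67 and 0.71 in mice 12 and 11. In liver mice 15, 13 and 12 thus lay above every D0 mouse for Dbp, as in lung, with mouse 11 inside the D0 range, and for Arntl mice 15 and 13 lay below D0 and mice 12 and 11 inside its range. The log2 fold change of Dbp was 2.24 in liver and 1.03 in forestomach, that of Nr1d1 0.65 and 0.31, and that of Arntl -1.23 and -0.04. The difference between lung and liver was not called for any of these genes.

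Some of the largest differences did not separate the groups but split single mice in the same way in several tissues. Of the 37 genes with a log2 difference of at least 1 either way, 20 were higher and 17 lower, and all D2 arrays lay beyond D0 in 2 and 5 of them. The examples were chosen after their values were seen. Trim12a, of a family of antiviral TRIM proteins, was measured above background on 4 of the 8 arrays, all in D0, and was at least 9.37-fold lower in D2 by Cy5 brightness (limma, adjusted p = 0.726). It read 3.37, 3.70, 3.50 and 4.53 in D0 mice 1, 2, 4 and 3, but -0.60 in D0 mouse 5 and -0.77, -0.41 and -0.79 in D2 mice 13, 15 and 12. In liver the same 4 controls lay at 1.85 to 3.43, mouse 5 at -0.33 and D2 mice 12, 13 and 15 between -0.18 and -0.17, whereas D2 mouse 11, which has no lung array, was at 1.79. Trim34a, separated from Trim12a on chromosome 7 by 1 other protein-coding gene in RefSeq, split the lung arrays alike, with 2.26 to 3.57 in D0 mice 1, 2, 3 and 4, 0.74 in mouse 5 and 0.39 to 0.82 in D2. Rnu3b1, one of several near-identical U3 small nucleolar RNA genes, was at 1.93 in D0 mouse 2 and 1.61 and 0.79 in D2 mice 13 and 12, and at -2.62 to -0.99 in the others. In liver the same 3 mice were at 1.27, 1.49 and 1.88, and the other 5 between -1.94 and -1.02. Rnu3b1 thus had high and low mice in both groups, and so did Trim12a once D0 mouse 5 and D2 mouse 11 are counted.

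**Figure D5:**
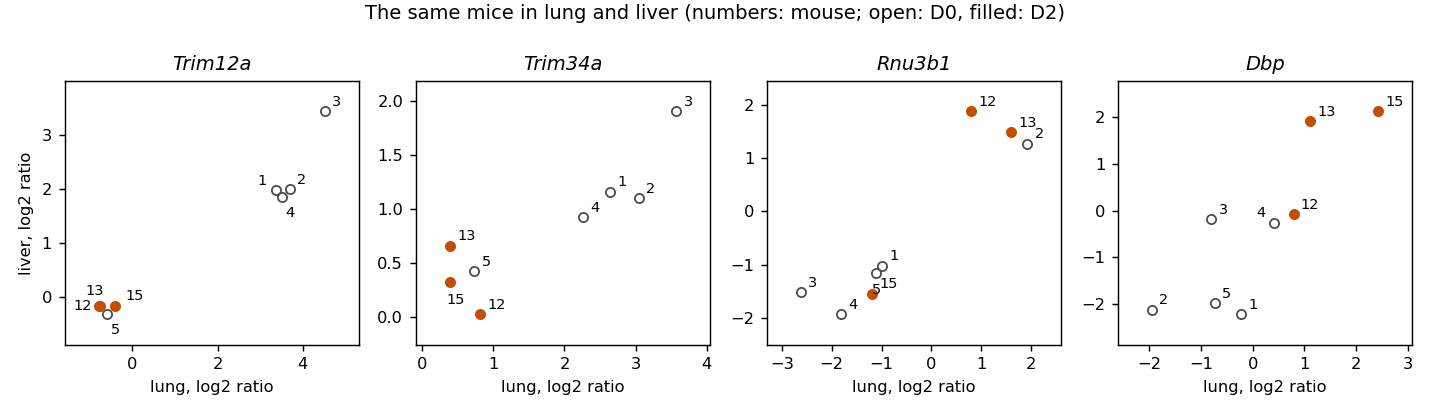
Log2 ratio in lung (x axes) and liver (y axes) of the 8 mice that have a lung array, for 4 genes chosen after their values were seen, with mouse numbers beside the points, D0 open and D2 filled. For Trim12a and Trim34a D0 mouse 5 sits with the D2 mice, for Rnu3b1 mice 2, 12 and 13 sit apart from the rest, and for Dbp D2 mice 13 and 15 are highest in liver.

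In some other genes with large differences 1 mouse lay apart from its group. Prex2, an exchange factor for Rac, was at 1.97 to 3.08 in 4 controls, -0.34 in D0 mouse 2 and -0.43 to -0.10 in D2. It was above background on 4 of the 8 arrays, all in D0, and at least 3.83-fold lower in D2 (limma, adjusted p = 0.612). Unc93a2 was at 2.38 to 3.26 in 4 controls, 0.31 in mouse 5 and 0.21 to 0.54 in D2 (-1.82, SE 0.57). Zdhhc22, a palmitoyltransferase, was at 5.22 to 6.37 in 4 controls, 4.06 in mouse 5 and 3.90 to 4.08 in D2 (-1.41, SE 0.39). The kinase gene Pak3 was at 1.78 in D2 mouse 13 and between -3.58 and -2.40 elsewhere (1.76, SE 0.68).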

How the data were processed

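Lung RNA of 18 mice in 4 dose groups was hybridised in Cy5 against a universal reference in Cy3 on 2-colour arrays, 1 array per mouse, with no dye swaps. The authors deposited scanner files with the median signal intensity of each spot, quantified by Feature Extraction 10.7.3.1, and a table of log2 ratios per probe, made by LOWESS without background subtraction per the study's methods. The scale and direction of the table were checked against LOWESS ratios computed here (r of 0.9926 to 0.9978 over lung arrays, slope 0.985 to 0.995). Control spots and 48 probes with non-uniform spots were left out. The table names no genes, so probes were named through RefSeq accessions of GRCm38.p6, which gave a symbol to 26407 probes (47.4%), and a difference from the study's names may come from this.

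limma 3.58.1 (R 4.3.3, lmFit and eBayes, two-sided) was fitted to all 18 lung arrays with a mean per dose, in place of the MAANOVA test the methods name, with Benjamini-Hochberg adjustment over 31448 probes. A call needed an adjusted p of at most 0.05 and a fold change of at least 1.5. Counts of genes used 1 probe per gene. Named genes were the 12 with the largest difference on each side whose D2 and D0 arrays did not overlap, with a p of 0.05 or less before adjustment and well above background in the higher group (with the fold limit on the lower side, since only 9 genes on the higher side met it), the smallest p on each side of each response list, and a fixed set of AhR, p53 and clock genes and Sspn. The members and lists were chosen with earlier results of these data known. Alternatives were the normalization, background, filter, arrays in the fit, slide, array column, array weights, cell type list covariates and leaving out each mouse. The test was checked on simulated data. The number of arrays limits the precision. Mouse numbers mark the same animal in each tissue, which pairs tissues but not dose groups, and the correlation between tissues of a mouse was 0.026 in the tissue fits. Columns without a sample numbered 0. A member of the clock lists is counted but not reported here by name.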

Additional observations from a re-analysis of the deposited data

Results flagged for a closer look

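Among the 43 genes and 40 lists examined, 7 of 83 groups of D0 arrays had 1 mouse far from the other 4, by a gap over 0.71 of the group's range. Chance alone gives about 1 in 20 such groups where they are independent and unselected. Some of these genes were chosen by their D0 values and some belong to the lists, so the count cannot be set against that rate. Mouse 3 was far above the other controls for Cdkn1a (gap of 0.783 of the range) and for the mean of the p53 target list (0.759), and far below them for the B cell list (0.803). Mouse 2 was far above them for Dnaja1 and for the heat shock list (0.823 each), and far below them for the thyroid list (0.785), of which 1 gene was tested. Mouse 5 was far above them for Aen (0.715).

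The D2 difference in lung was unlike that in forestomach by the limma interaction test for 4 probes, at an adjusted p of 0.0449 each. The lung minus forestomach difference was 1.65 for Hlf, -0.59 for Tsen54, -0.73 for Eif3d and -0.94 for A_30_P01018146. No explanation was tested for these values.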

How the results depend on the processing

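The finding of 0 calls between D2 and D0 held under every alternative run except that leaving out 1 mouse gave 0 to 1, the 1 being a probe without a symbol (A_55_P1974432, -2.27, limma, adjusted p = 0.0377) without D2 mouse 15. The cause of such shifts was not tested. Median centring of each array gave 1171 genes higher and 36 lower at the unadjusted limit of 0.05, in place of 468 and 396, and 32 in place of 359 with all D2 arrays below D0. The adipocyte list mean as a covariate, chosen after seeing the data, gave 906 higher. Leaving out 1 mouse gave 579 to 916 genes with all D2 arrays above D0 and 486 to 1005 with all below, since fewer arrays must be passed. D2 against D1 had 1 call (Mrpl15) with array column as a covariate and 0 to 1 with 1 mouse left out (the same unnamed probe, without mouse 15). D3 against D2 had 3 (Calr3, Ocel1 and Prex2) with the spread from these groups alone. For lung minus liver, leaving out a mouse gave 0 to 1 (Prex2 without D0 mouse 2, an unnamed probe without D0 mouse 4). For lung minus forestomach, in place of 4, LOWESS recomputed from the scanner files, median centring and the spread from these tissues alone gave 0 each, and leaving out a mouse gave 0 to 2. With the replicate block (mouse as a random block, pairing tissues of 1 animal) the counts were 0 for liver and 4 for forestomach, so that the pairing changed no call. Of the named genes, the array column as a covariate turned Spp1, C2 and Vegfc, median centring turned Aen, and Tiparp and Ccng1, both near 0, turned in 8 and 2 of 20 alternatives. Median centring put the median difference of all probes at 0.12. Aen (0.02), Ube2b (-0.05) and Mmp2 (-0.13) lay below that median. A Cy5 signal near background limits Ahrr, Ciart, Npas2, Tmem221, Trim12a and Prex2. A Cy3 signal near background limits Cyp1a1, as does Cy5 at D1 and D3, and 3 D2 arrays limit every difference.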
